A study of Mus musculus with 8 samples.

Results

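Pool A2 of mouse embryonic stem (ES) cells, labelled ERF knockout, was compared with pool A1, labelled ERF wild type. The arrays compared are, by their labels, the replicate 1 array of each of the 4 groups, which makes 4 of the 8 arrays of the series, 2 a pool, all on the same slide. Every pool, wild type or knockout, is labelled H-Ras-/- and N-Ras-/- and is RERTert/ert, a Cre driver that 4-hydroxy-tamoxifen (OHT) activates and that acts on a floxed allele shared by all pools. A1 is ERF-WT and A2 is ERF-KO, and each was sampled without treatment and after at least 2 days of OHT. Per the labels, each sample is a mix of 2 clones, grown on gelatin with serum and with LIF, the cytokine that keeps ES cells undifferentiated. A knockout pool and a wild type pool are 1 pool of clones each, so the genotype and the history of the clones cannot be told apart in this comparison. The other pools, B1 (ERF-WT) and B2 (ERF-KO), are given only where they show how A2 differs. How RNA amounts relate to cell numbers is not known in such bulk samples: fewer cells of a type and less RNA per cell cannot be told apart.

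ERF belongs to the ETS family of transcription factors and represses its targets. The kinase ERK, at the end of the RAS-RAF-MEK cascade, phosphorylates ERF and so keeps it out of the nucleus, and when ERK is inactive ERF enters the nucleus and represses genes with ETS sites. In ES cells ERK activity pushes cells out of the naive pluripotent state, which is held by factors such as Nanog, Klf2 and Esrrb, and RAS is also needed for their growth. Against this background the comparison shows which transcripts differ between a pool labelled ERF knockout and a pool labelled wild type, without and with OHT.

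On the 4 arrays 57.5% to 63.6% of non-control spots were well above background and 0 were saturated. Between 0% and 3.18% of the spots lay in dark areas of the chip, the most on the A2 array with OHT, and were left out. Levels are given as log2 signal relative to the 75th percentile of the array, in the order A1 untreated, A1 with OHT, A2 untreated and A2 with OHT. A difference is the mean over both treatments of A2 minus A1, on the log2 scale, with its standard error (SE) and the adjusted p of limma over 14949 genes. Because each pool has 1 array per treatment, a gene's own spread is only how far its pool difference varied between the untreated and the OHT arrays. The SE and p are moderated: limma draws the gene's variance toward that of genes of like signal. Of 5.53 total degrees of freedom (median over genes), 1 is the gene's own. All 10 ES cell markers were well above background on both A1 arrays and on the untreated A2 array, and 9 were on the A2 array with OHT, where the other was masked. Their summed signal was 557 and 594 times the 75th percentile on the A1 arrays and 440 and 391 times on the A2 arrays. The sum of 391 leaves out the masked marker, so part of its distance from the other sums can come from the mask.

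The targeted gene was checked first. Erf had levels of 4.91, 4.79, 3.25 and 3.73. Both A2 arrays lay below both A1 arrays, and the difference was -1.36 ± 0.15 (SE; adjusted p = 0.0093, limma), 2.56-fold lower in A2. The remaining signal was well above background, and whether the probe lies in the deleted part of the gene is not known here. In the other pools Erf stood at 5.21 and 4.73 in B1 and at 5.42 and 5.13 in B2, so that of the pools labelled ERF-KO, A2 had less Erf signal than either wild type pool and B2 did not. The genes on each side of Erf did not pass the test: Gsk3a differed by 0.24 ± 0.10 (adjusted p = 0.17) and Pafah1b3 by -0.09 ± 0.09 (adjusted p = 0.51). Although all pools are labelled null for Hras and Nras, both gave signal well above background on all 4 arrays, Hras by its brighter probe. The other Hras probe stood at -4.48 and -4.40 in A1 and at -5.39 and -5.54 in A2. That probe was well above background on only 1 array of the series. Where the probes lie relative to the deleted parts is not known here, so the signals of Hras and Nras do not check the labels. Hras, at 3.003, 2.70, 2.66 and 2.59, differed by -0.23 ± 0.11 (adjusted p = 0.20). Nras was at 0.66, 0.81, 1.36 and 1.88 and was higher in A2 by 0.89 ± 0.14 (adjusted p = 0.020), a direction shared by its 3 probes. Its mean was 1.51 in B1 and 1.70 in B2, and A2 did not pass against B2 (-0.08, adjusted p = 0.63), so A1 was the pool with the lowest Nras signal.

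Of the 14949 genes, 2238 differed between the pools at an adjusted p below 0.05 (15.0%), 1332 higher in A2 (8.91%) and 906 lower (6.06%). At least a 2-fold change was seen in 604 of those higher and 249 of those lower, and the median over all genes was -0.02. Of the 2238, 34 were not well above background on either A1 array and 29 on either A2 array. These entered the test only through the pool in which they are bright, their p compares that pool with values near the background, and their fold is a lower bound. All 2238 had the same sign without treatment and with OHT, which the test itself favours. The count rests on the dark areas being masked and on the variance model: no gene (0) passed without the mask (4141 with an unadjusted p below 0.05), with the local deviation subtracted in place of the mask (4454) or with a common prior variance in limma (4455), and 1 passed without the treatment term (2872), against 5181 unadjusted in the fit reported. In fits that also used the other pools, limma called 2886 genes over the 6 arrays of the slide and 3752 over all 8, and with the A2 array with OHT left out of the former it called 1349. Scaling to the median of each array in place of the 75th percentile moved the median of all genes to 0.13 and gave 3604 calls, 80.0% of them higher in A2 against 59.5%.

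**Figure D1:**
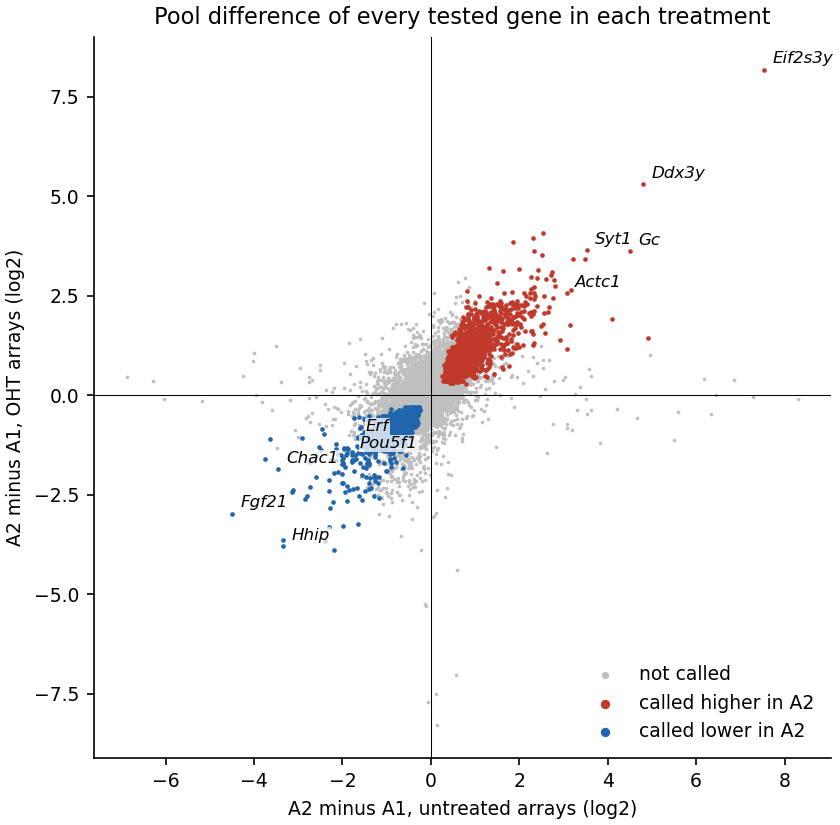
Each point is 1 of the 14949 tested genes, with A2 minus A1 on the untreated arrays on the x axis and on the OHT arrays on the y axis (both log2). Red points were called higher in A2 and blue points lower at an adjusted p below 0.05; grey points far along an axis differed on 1 treatment's arrays and were not called.

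Counts of list members called are to be read against the shares over all genes, 8.91% higher and 6.06% lower. Of the lists examined, the actin cytoskeleton and its regulators had the highest share of members called. Many of these genes are direct targets of SRF, a factor that binds the CArG box and is switched on when actin polymerises or when ERK acts through its partners. Of 22 tested members of the contractile and SRF target list, 21 were higher in A2 and 0 lower, with a median difference of 1.38 against -0.02 for all genes. Cardiac actin Actc1 had levels of -3.07, -1.37, 0.01 and 1.20, and skeletal actin Acta1 had -0.01, 0.69, 2.35 and 3.20. For both actins each A2 array lay above both A1 arrays. Actc1 differed by 2.82 ± 0.19 (adjusted p = 0.0042) and Acta1 by 2.43 ± 0.12 (adjusted p = 0.0030). Ccn1, a secreted matricellular protein, stood at 2.02, 2.46, 4.42 and 4.69, a difference of 2.32 ± 0.10 (adjusted p = 0.0026). The other increases ran from 0.49 for Myl6, a myosin light chain, to 2.13 for Tgfb1i1, and took in smooth muscle actin Acta2 (2.10), calponin Cnn1 (2.09), transgelin Tagln (1.89) and vinculin Vcl (1.21). Srf itself, at 2.55, 2.27, 2.79 and 2.83, did not pass (0.40 ± 0.12, adjusted p = 0.082). The list median was 1.11 on the untreated arrays and 1.67 on the OHT arrays, and over the 20 other processings and fits it stayed between 1.13 and 1.60. Fits that change only the variance model or the treatment term cannot move this median.

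Promoters of this list are shown because many of its members share the CArG box, read here as CC, 6 bases of A or T, and GG. In 300-base windows from 250 bases before to 50 after the start site (RefSeq, GRCm38.p6), the box was present in 8 of 18 listed genes with a promoter sequence (44.4%), against 206 of 11864 tested genes (1.74%). The list is named for targets of SRF, so this share follows from how it was chosen. Among all genes called, the box was in 2.80% of those higher in A2 and 1.99% of those lower. Of the 8 genes with the box 7 were higher in A2, and Srf, which holds 2 boxes, did not pass. The stretches around the box are printed 5′ to 3′ on the strand of the gene, with the box in capitals, for Acta1 (chr8:123894814-123894873, minus strand), Actc1 (chr2:114052888-114052947, minus strand), Cnn2 (chr10:79988519-79988578, plus strand), Myl9 (chr2:156775278-156775337, plus strand), Filip1l (chr16:57549155-57549214, plus strand) and Srf (chr17:46556190-46556249, minus strand). Myl6 and Vcl hold the box too and are not printed.
Acta1: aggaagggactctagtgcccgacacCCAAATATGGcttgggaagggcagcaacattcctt
Actc1: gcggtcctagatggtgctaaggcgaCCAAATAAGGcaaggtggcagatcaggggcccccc
Cnn2: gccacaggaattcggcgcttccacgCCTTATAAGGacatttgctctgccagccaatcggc
Myl9: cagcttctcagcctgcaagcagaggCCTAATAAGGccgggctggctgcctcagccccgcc
Filip1l: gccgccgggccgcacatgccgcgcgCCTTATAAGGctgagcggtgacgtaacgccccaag
Srf: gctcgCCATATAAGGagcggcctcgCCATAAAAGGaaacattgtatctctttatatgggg
The box ended 63 bases before the start site in Acta1, 37 in Actc1, 46 in Cnn2, 151 in Myl9 and 52 in Filip1l, and the nearer box of Srf ended 52 bases before it. Cnn2 was higher in A2 by 1.00, Myl9 by 1.24 and Filip1l by 1.43. A match of letters is a description of the window and not evidence of binding.

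The ETS motif CCGGAAGT, searched on both strands of the same windows, was in 916 of 11864 tested genes (7.72%). It was in 4.82% of the promoters of genes higher in A2 and in 5.40% of those lower. The promoter of Erf held neither this motif nor the CArG box.

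**Figure D2:**
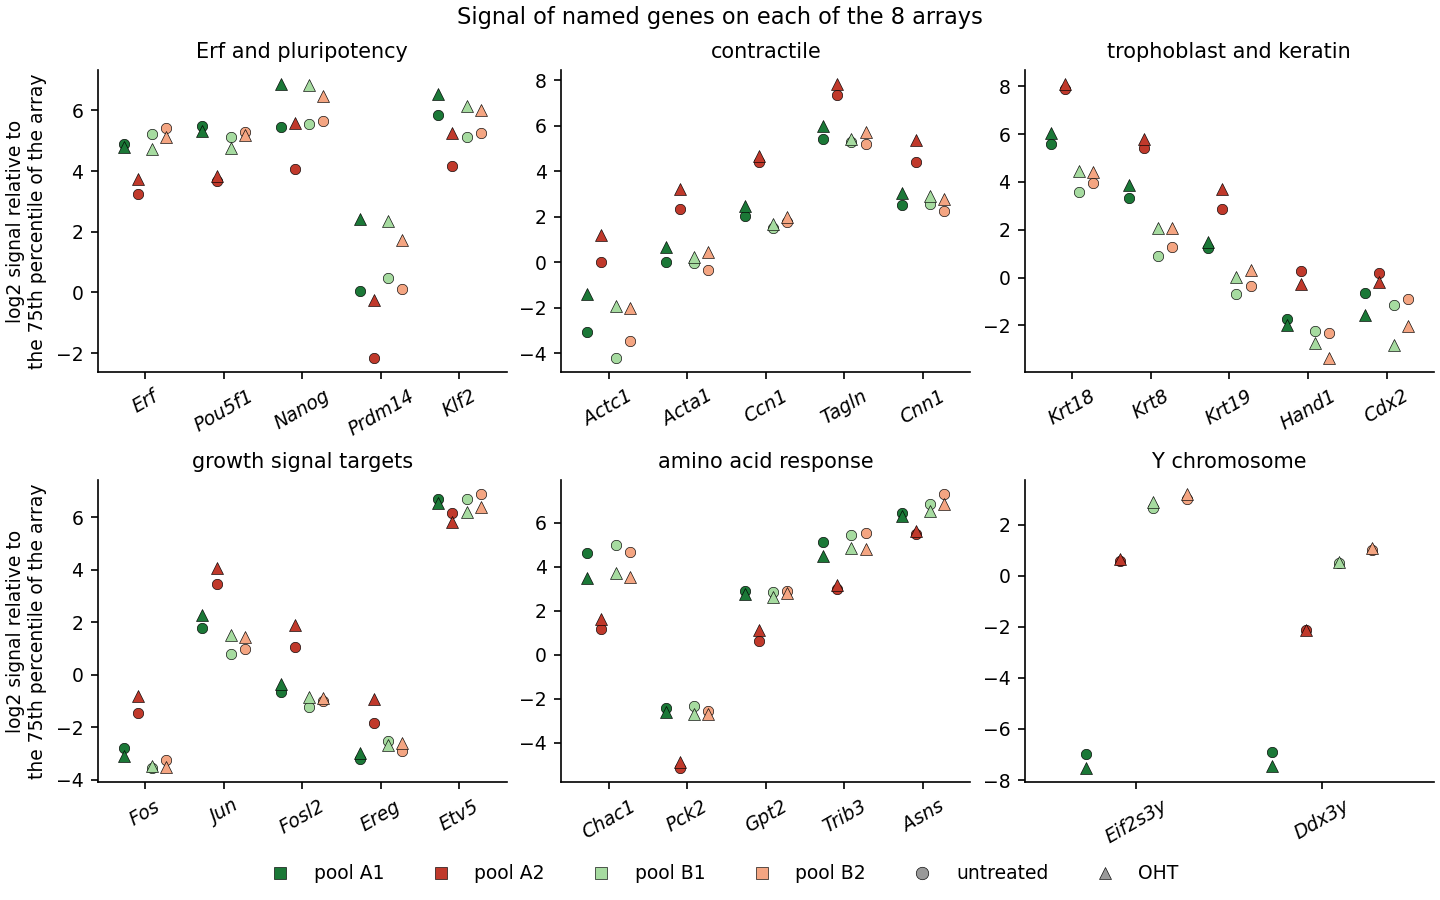
The log2 signal relative to the 75th percentile of the array (y axis) of 27 genes on each of the 8 arrays, with circles for untreated and triangles for OHT arrays and a colour for each pool. A2 stands below A1, B1 and B2 for Erf and Pou5f1 and above them for Acta1, Krt18 and Jun, while the lowest signal of both Y genes drawn is that of A1.

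Naive pluripotency factors were lower in A2. Of 24 tested members 16 were lower and 0 higher, with a median of -0.72. Of 17 genes on a separate list of core pluripotency factors 3 were lower and 0 higher, with a median of -0.12. Prdm14, a repressor of DNA methylation genes, had levels of 0.05, 2.42, -2.17 and -0.26, and differed by -2.45 ± 0.17 (adjusted p = 0.0042). Its A2 value with OHT lay below the untreated A1 value, although OHT arrays were higher in both pools. Nanog had levels of 5.44, 6.87, 4.06 and 5.59, and its difference was -1.33 ± 0.08 (adjusted p = 0.0038). Within each treatment A2 was lower, but the A2 array with OHT lay above the untreated A1 array. Tcl1, a coactivator of AKT, differed by -2.12 ± 0.15, the nuclear receptor Nr0b1 by -1.68 ± 0.14, Klf2 by -1.48 ± 0.11 and Fgf4, the ligand that drives ERK in ES cells, by -1.30 ± 0.19. Esrrb differed by -0.995 ± 0.10, and Klf4 (-0.32, adjusted p = 0.092), Dppa3 (-0.26) and Stat3 (0.21) did not pass.

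In the core list the POU factor Pou5f1 (Oct4) differed most. Its levels were 5.47, 5.31, 3.68 and 3.82, with no overlap between the pools, and the difference was -1.64 ± 0.11 (adjusted p = 0.0041), 3.12-fold lower in A2. Sox2 was lower by a smaller amount (-0.44 ± 0.10, adjusted p = 0.042), as was Tdgf1, a coreceptor for Nodal (-0.42 ± 0.10, adjusted p = 0.049). Markers of formative and primed epiblast, the stages that follow the naive state, went both ways, 7 of 26 higher and 6 lower. Grhl2 (1.26), Pou3f1 (0.95) and Fgf5 (0.81) were among the higher and Lefty1 (-0.68), Foxd3 (-0.67) and Tcf15 (-0.55) among the lower, while Otx2 (0.14) and Dnmt3b (0.34) did not pass.

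Trophoblast genes, which mark the outer layer of the early embryo, and simple keratins were higher in A2. On the trophoblast list 11 of 19 tested members were higher and 0 lower, with a median of 0.95. Krt18 had levels of 5.59, 6.06, 7.89 and 8.10 and Krt8, its filament partner, 3.31, 3.88, 5.42 and 5.80. Neither keratin showed overlap between the pools, and they differed by 2.17 ± 0.09 (adjusted p = 0.0026) and 2.02 ± 0.09 (adjusted p = 0.0030). Hand1, a transcription factor of trophoblast giant cells, stood at -1.76, -1.98, 0.28 and -0.26 and differed by 1.88 ± 0.17 (adjusted p = 0.0062). Cdx2, which starts the lineage, had levels of -0.64, -1.58, 0.18 and -0.19 and differed by 1.11 ± 0.19 (adjusted p = 0.024). Gata3 (1.06), Tead4 (1.096) and Eomes (0.90) were higher as well, but Tfap2c (-0.54), Ascl2 (0.28) and Gcm1 (0.56) did not pass. The summed signal of the 8 trophoblast markers was 66.2 and 104 times the 75th percentile on the A1 arrays and 291 and 343 times on the A2 arrays, with 7 of 8 above background on each array. That sum rests largely on keratins, which other epithelia share.

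Epithelial junction and keratin genes were higher in 17 of 30 tested members and lower in 2. The 4 keratins Krt7, Krt8, Krt18 and Krt19 stand on both lists. The desmosomal plaque protein Dsp differed by 1.59 and the claudins Cldn7 and Cldn4 by 1.22 and 1.01, whereas Cdh1 (0.66, adjusted p = 0.056) and Epcam (0.03) did not pass and Krt17 was lower (-1.10). N-cadherin Cdh2 was higher by 1.30. Keratins therefore did not all move the same way.

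The extracellular matrix list had 18 of 40 tested members higher and 5 lower, with a median of 0.65. Thbs1, which activates latent TGF-beta, had levels of 2.53, 2.80, 4.02 and 5.10 and differed by 1.90 ± 0.20 (adjusted p = 0.0075). The basement membrane collagens Col4a1 and Col4a2 were higher by 0.85 and 1.07. Laminin alpha 1 (Lama1), a product of primitive endoderm, was at 4.15, 4.81, 3.46 and 3.93 and lower in A2, with a difference of -0.79. Of 12 fibroblast markers, 11 were well above background on both A1 arrays and on the untreated A2 array. On the A2 array with OHT, where 1 was masked, 10 were. Those above background summed to 39.8 and 42.7 times the 75th percentile in A1 and to 60.4 and 79.9 times in A2. Of 10 tested, 4 were higher: Col3a1 by 1.01, Col1a2 by 0.99, Twist2 by 0.85 and the filament protein Vim by 0.77. In the other wild type pool, B1, the mean of Col3a1 was -0.40 and that of Twist2 -1.21, against -0.36 and -1.25 in A2. For Col1a2 it was 3.82 in B1 and 4.12 in A2. The fibroblast markers above background summed to 52.8 and 56.8 times in B1 and to 37.6 and 47.0 times in B2. The 8 primitive endoderm markers summed to 19.23 and 29.9 times in A1 and to 12.4 and 16.6 times in A2. On the A2 array with OHT 1 marker was masked, and the sum of 16.6 leaves it out. The longer primitive endoderm list went both ways, with 5 of 22 tested members higher, Col4a1 and Col4a2 among them, 6 lower and a median of -0.02. The part of other cell types in the differences was not tested.

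**Figure D3:**
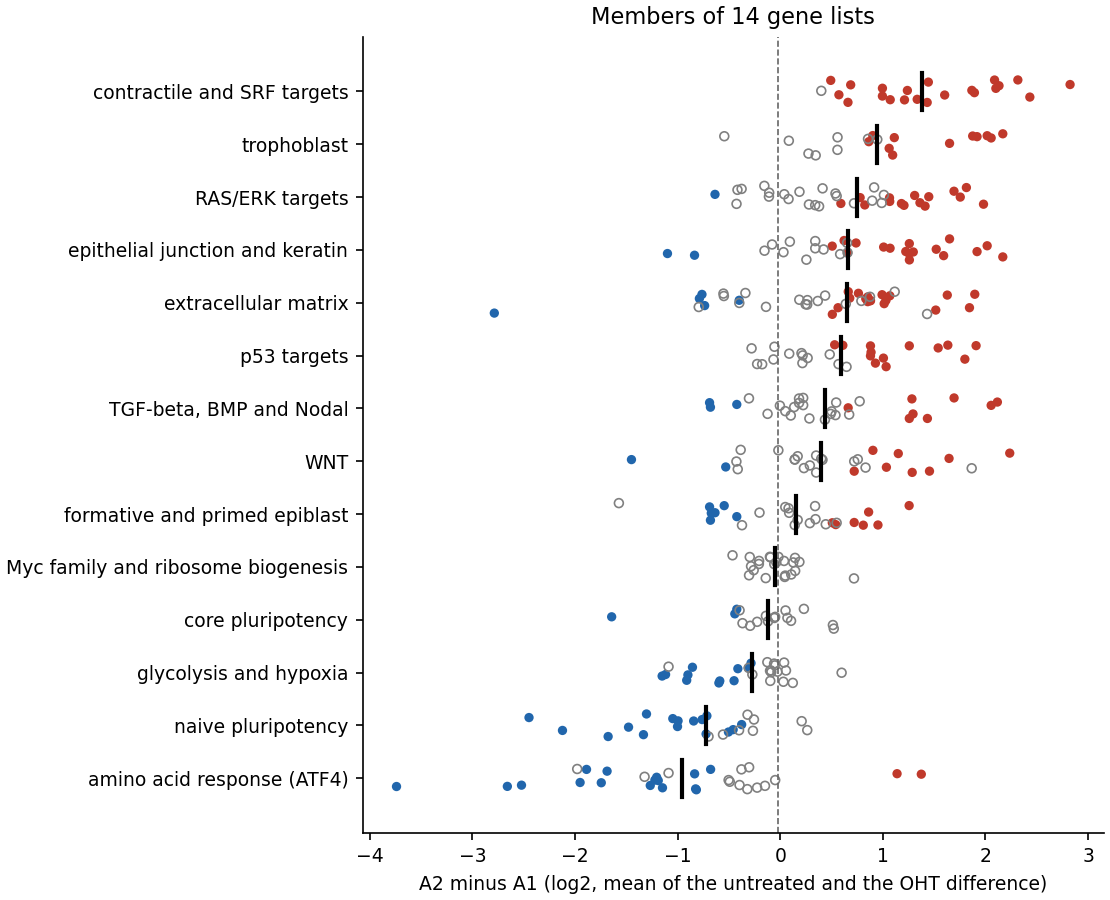
Each point is a tested member of 1 of 14 gene lists, placed by A2 minus A1 (log2) on the x axis: filled red where called higher, filled blue where called lower and open where not called. Bars mark list medians and the dashed line the median of all genes, -0.02; the contractile list has 1 open point, and naive pluripotency has no red one.

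On the list of targets of RAS and ERK signalling, 15 of 36 tested genes were higher in A2 and 1 lower, with a median of 0.75, which was 0.49 on the untreated arrays and 0.98 on the OHT arrays. Jun, Fos and Fosl2 are subunits of AP-1. Jun had levels of 1.77, 2.26, 3.46 and 4.08, Fos -2.79, -3.10, -1.45 and -0.81, and Fosl2 -0.66, -0.37, 1.05 and 1.89. None of these 3 genes had an A2 array at or below an A1 array, and the differences were 1.75 ± 0.10 (adjusted p = 0.0038), 1.81 ± 0.28 (adjusted p = 0.018) and 1.98 ± 0.17 (adjusted p = 0.0058). Fosl1 (1.41) and Fosb (1.36) were higher too, as were the EGF receptor ligands Ereg (1.69) and Hbegf (1.21) and the phosphatases Dusp1 (1.31), Dusp4 (1.07) and Dusp6 (0.59), which switch off ERK or related kinases. Dusp6 fell with OHT in both pools, with levels of 4.68, 2.44, 5.12 and 3.18. The feedback inhibitors Spry2 (0.28), Spry1 (-0.15), Spry4 (-0.42) and Spred1 (0.41) did not pass. Neither did Etv4 (0.08) or Etv1 (-0.38), while Etv5, at 6.70, 6.56, 6.17 and 5.82, was lower in A2, with a difference of -0.64 (adjusted p = 0.014).

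Other members of the ETS family, whose sites ERF shares, were mostly without a call: of 18 tested, 2 were higher and 2, Erf among them, lower. Ets1 had levels of -2.93, -2.06, -0.38 and 0.00 and was higher by 2.30 ± 0.20 (adjusted p = 0.0058), and Elf1 by 0.97 ± 0.14 (adjusted p = 0.016). The RAF-MEK-ERK cascade had 3 of 25 members higher, near the 8.91% of all genes, and 4 lower. The lower ones were the RAS activator Rasgrp1 (-1.54 ± 0.20), the RAS relative Mras (-1.32 ± 0.11), the ERK substrate kinase Rps6ka2 (-0.94 ± 0.20) and ERK1 itself, Mapk3 (-0.52). The mean of Rasgrp1 was -1.36 in A1, -2.90 in A2, -4.11 in B1 and -3.44 in B2, so A1 was the pool with the highest Rasgrp1 signal. On the untreated B1 array Rasgrp1 was not well above background. Araf (0.52), Rras2 (0.68) and Nras were the higher ones.

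In the TGF-beta, BMP and Nodal list 8 of 29 were higher and 3 lower. Tgfb2 had levels of -0.997, -0.56, 0.95 and 1.72 and differed by 2.12 ± 0.15 (adjusted p = 0.0044). Bmp2 (1.43), Id3 (1.29) and Id2 (1.26), the Id genes being BMP targets, were higher, and the Nodal antagonists Lefty1 and Lefty2 (-0.69) were lower, while Nodal (0.05), Bmp4 (-0.12) and Smad1 (0.10) did not pass. In the WNT list 8 of 27 were higher and 2 lower. Wnt3 had levels of -2.12, -1.30, 0.05 and 1.01 and differed by 2.24 ± 0.15 (adjusted p = 0.0042), Wnt6 by 1.65 ± 0.14 and the effector Tcf7l2 by 1.45 ± 0.19. The secreted WNT inhibitor Sfrp1 was lower (-1.45), and the common WNT target Axin2 (0.83) did not pass.

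Targets of p53 were higher in 13 of 26 tested members and lower in 0, with a median of 0.59 that was 0.60 without treatment and 0.70 with OHT. The transcript of p53 itself, Trp53, was at 1.36, 1.50, 1.40 and 1.33 and did not pass (-0.07). Pmaip1 (Noxa), which promotes cell death, had levels of 0.54, 0.39, 2.40 and 2.34 and differed by 1.91 ± 0.12 (adjusted p = 0.0038). The death receptor Fas was higher by 1.80 ± 0.25, the kinase Plk2 by 1.63 ± 0.15, the p53 inhibitor Mdm2 by 0.89 ± 0.08 and the cell cycle inhibitor Cdkn1a by 0.88 ± 0.10. Bax (0.21) and Sesn1 (-0.18) did not pass.

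A set of genes that cells raise when amino acids are short, most of them targets of ATF4, was lower in A2; this list was drawn up after its values had been seen. Of 30 tested genes 16 were lower and 2 higher, with a median of -0.96. Chac1, which breaks down glutathione, had levels of 4.64, 3.50, 1.18 and 1.63 and differed by -2.66 ± 0.35 (adjusted p = 0.013). Trib3, an inhibitor of AKT, had levels of 5.13, 4.49, 2.98 and 3.15 and differed by -1.74 ± 0.19 (adjusted p = 0.0086). Both were higher on the A1 array without OHT than with it, and neither overlapped with A2. Fgf21, a stress hormone, was well above background in A1 (-2.33 and -3.83) and not in A2 (-6.83 and -6.81), at least 3.49-fold lower (adjusted p = 0.013). Fgf21 entered the test only through A1. Enzymes of serine and one-carbon metabolism were lower as well, with Psat1 at -1.27, Mthfd2 at -1.22, Shmt2 at -1.20 and Psph at -1.19, and so was asparagine synthetase Asns (-0.82). Atf4 (-0.50, adjusted p = 0.055), Phgdh (-0.49) and Cth (-0.30) did not pass, and Atf3 (1.37) and Stbd1 (1.14) were higher.

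Glycolysis and hypoxia genes were lower in 11 of 27 tested members and higher in 0, with a median of -0.27. The angiogenic factor Vegfa differed by -1.15 ± 0.28 (adjusted p = 0.049), the aldolase Aldoc by -1.12 ± 0.11 (adjusted p = 0.0070), the oxygen sensor Egln3 by -0.91 ± 0.13, triose phosphate isomerase Tpi1 by -0.60 and lactate dehydrogenase Ldha by -0.59. The glucose transporter Slc2a1 (0.60) and Gapdh (-0.03) did not pass. The 22 genes of the Myc family and ribosome biogenesis gave 0 calls in this fit, and their median was -0.05. Of 35 ribosomal protein genes 1 was called, Rpl28 (-0.39).

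Imprinted genes, which are read from the allele of 1 parent, were higher in 13 of 46 tested members and lower in 4. Nnat was higher by 1.56 ± 0.18 (adjusted p = 0.010), and Igf2 (1.26), Peg3 (0.99) and Mest (0.97) were higher too. Cdkn1c, a cell cycle inhibitor, was at 5.89, 5.14, 4.25 and 3.68, with a difference of -1.55 ± 0.09 (adjusted p = 0.0038), and its neighbours Phlda2 (-1.20) and Slc22a18 (-1.09) were lower. Against B2, Cdkn1c differed by -0.18 (adjusted p = 0.22).

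Among the named genes, the largest fitted differences were those of Eif2s3y and Ddx3y on the Y chromosome. With A1 not well above background, both entered the test only through A2. Their p compares A2 with values near the background, and their sizes are known only as lower bounds. Eif2s3y, a translation factor, was not well above background in A1 (-6.97 and -7.54) and stood at 0.56 and 0.65 in A2, at least 47.1-fold higher (adjusted p = 0.0026). Ddx3y, an RNA helicase, was likewise not well above background in A1 (-6.90 and -7.43), against -2.11 and -2.12 in A2, at least 7.16-fold higher (adjusted p = 0.0044). Both genes were lower in A2 than in B2, with differences of -2.49 for Eif2s3y and -3.15 for Ddx3y. Of 21 Y genes with a named probe, both arrays of A1 detected 1 above background, those of A2 detected 2, those of B1 detected 5 and those of B2 detected 6, and Xist, which is transcribed from an inactive X, was not tested because neither pool had it well above background on both of its arrays.

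Among called genes with no overlap between the pools and well above background on all 4 arrays, Syt1, a calcium sensor of vesicle release, had the largest increase. Its levels were -2.59, -2.41, 0.94 and 1.23, a difference of 3.58 ± 0.16 (adjusted p = 0.0026), 12.0-fold higher. Amot, a regulator of YAP, was called with a difference of 3.17 ± 0.75 (adjusted p = 0.046), but its 2 values in A1 were -1.99 and 2.05 against 2.91 and 3.48 in A2. Other genes with large fitted differences were not well above background in A1, entered the test only through A2 and have no order by size. The X-linked ubiquitin ligase Mid1 was at least 10.002-fold higher, Gc, the vitamin D binding protein, at least 6.18-fold (adjusted p = 0.0064), and Lce1f, Scel, Uts2b and Rfx6 at least 4.39-fold, 2.64-fold, 2.14-fold and 1.88-fold. Among decreases, that of Chac1, given above, was the largest with all 4 arrays well above background. Hhip, a hedgehog antagonist, and Ceacam2, an adhesion molecule, were not well above background on the untreated A2 array, so their sizes rest in part on a value near the background. Hhip had levels of -1.67, 1.01, -5.00 and -2.78 and a difference of -3.57 ± 0.22 (adjusted p = 0.0039), and Ceacam2 differed by -2.75 ± 0.28 (adjusted p = 0.0075). Tff1, Eif4e1b, Col23a1, Cela3a, Mef2b and Cldn19 were not well above background in A2 and were at least 1.37-fold to 3.94-fold lower.

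Late cornified envelope genes, which code for structural proteins of the epidermal surface and lie in a cluster on chromosome 3, were picked out after their values had been seen. Of 11 tested Lce genes 6 were higher and 0 lower, and of 5 Sprr genes of the same cluster 2 were higher. Lce1i had levels of -1.41, -0.86, 0.83 and 1.72 and Lce1h -2.46, -2.15, -0.34 and 0.41, and both were higher in A2 on every array. They differed by 2.41 ± 0.15 (adjusted p = 0.00396) and 2.34 ± 0.19 (adjusted p = 0.0053). Lce1m (-0.20) and Lce3b (-0.22) did not pass. Their values are uncertain in so far as near-identical Lce genes may share signal on a probe.

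Chromosome 8 had more genes called lower in A2 than higher. The median over 774 tested genes was -0.19, 69.1% of them lay below 0, and 109 were called lower (14.1%) against 36 called higher. It was -0.21 on the untreated and -0.15 on the OHT arrays. The medians of the other chromosomes apart from Y lay between -0.073 and 0.066. Hhip, Klf2, Sfrp1, Mef2b, Gpt2 and Gdf15 lie on chromosome 8, and Acta1 does too. Between the other pools, genes of chromosome 8 had a median of -0.28 in A1 minus B1, -0.48 in A2 minus B2 and 0.03 in B2 minus B1, so that the order was A2, A1 and then the B pools. Chromosome 6, with a median of -0.01 in A2 minus A1, was lower in both A pools: -0.46 in A1 minus B1 and -0.44 in A2 minus B2. These are medians of expression, described without a test, and copy number was not measured.

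**Figure D4:**
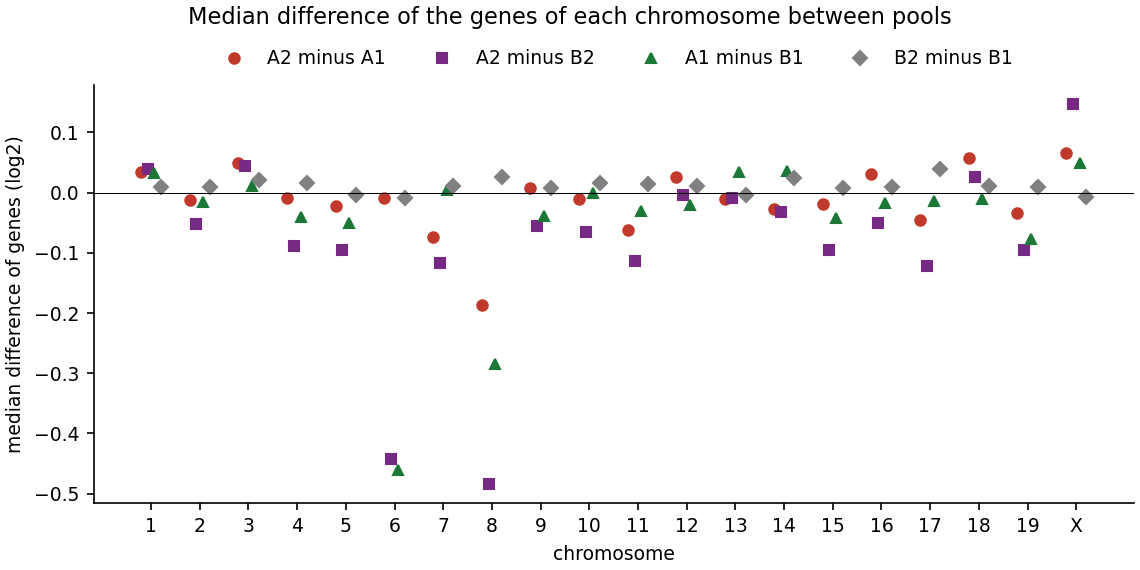
Median log2 difference (y axis) of the tested genes of each chromosome (x axis) in 4 pairs of pools, marked by shape and colour. A2 minus A1 is near 0 except at chromosome 8 (-0.19), while chromosome 6 departs from 0 where an A pool is set against a B pool.

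The other labelled knockout pool on the same slide gave a second measure of where A2 differs. Over 6 arrays limma called 6169 of 14429 genes between A2 and B2 (42.8%), 2552 higher in A2 (17.7%) and 3617 lower (25.1%), and this comparison shares the A2 arrays with that against A1. Leaving out the A2 array with OHT gave 4058 calls, the untreated B2 array 3751 and the B2 array with OHT 3198. Against B2, 21 of 22 contractile genes were higher in A2 with a median of 1.42, 19 of 24 naive pluripotency genes were lower with a median of -0.97, and 12 of 18 trophoblast genes were higher with a median of 1.38. On the amino acid response list 20 of 29 were lower with a median of -1.27. Of 25 p53 targets 17 were higher in A2 than in B2 and 0 lower, with a median of 0.78. Pmaip1 was among those without a call: its mean was 2.67 in B1 and 2.90 in B2, and A2 did not pass against B2 (-0.53, adjusted p = 0.063). On the list of genes of the 2-cell-like state 15 of 17 were higher in A2 than in B2 with a median of 4.67 (4.60 with the 4 genes not well above background in B2 set to the floor of the array), whereas 1 was called between A2 and A1 and their median was -0.14.

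Whether A2 minus A1 differed from the same contrast of the B pools, B2 minus B1, was tested over all 8 arrays. The difference passed in 2539 of 14895 genes (17.0%), 1228 higher (8.24%) and 1311 lower (8.80%), and B1 alone lay on the other slide, so slide and pool cannot be told apart there. The count fell to between 579 and 1217 when any 1 of the 2 arrays of A1, of B1 or of B2 was left out, and to 1422 without the mask of dark areas, and it was 2576 and 1896 without the untreated and the OHT array of A2. It passed for Erf (-1.66, adjusted p = 0.013) and for 20 of 22 contractile genes, all higher, with a median of 1.36. It passed as lower for 16 of 24 naive pluripotency genes with a median of -0.77, and as higher for 7 of 18 trophoblast genes and 12 of 26 p53 targets. It also passed as lower for 23 of 34 ribosomal protein genes, with a median of -0.38. The median of that list was -0.05 in A2 minus A1 and 0.30 in B2 minus B1. In the B pools alone, 356 genes (2.39%) were called between B2 and B1, 294 higher in B2 (1.97%) and 62 lower (0.416%).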

How the data were processed

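RNA from 8 cultures was labelled with Cy3 and hybridised to 1 Agilent array each, per the labels. Per the file headers, Agilent Feature Extraction 11.5.1.1 wrote the deposited scanner files, whose intensity per spot is background-subtracted and not scaled between arrays, with 0 or 1 flags as deposited. Any normalisation or testing by the authors is not described in these sources. The series' table of processed values was not used.

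Each array had 59305 non-control spots of 55681 probes. Control spots, outlier-flagged spots and spots in dark areas were left out: an area was dark where the median deviation of spots within 5 rows and columns, from the same spot's median over 8 arrays, was below -0.5 (log2). The log2 intensity minus the array's 75th percentile was averaged per probe. Accessions were named through the RefSeq table of GRCm38.p6, which gave 28020 probes of 21150 genes. A gene was tested if it had a value on all 4 arrays and cleared the background well on both arrays of A1 or of A2, with the brightest probe kept; 1102 genes lost a value on 1 of the 4 arrays. Where a pool was not well above background, the fold is a bound taken against the dimmest probe well above background on each array of that pool, or the probe's own signal if higher.

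limma 3.58.1 in R 4.3.3 (lmFit, eBayes with a variance trend) fitted pool plus treatment on 4 arrays, with 1 residual degree of freedom, two-sided, Benjamini-Hochberg over all genes. A2 was set against B2 on the 6 arrays of the slide, and the contrast of A2 minus A1 with B2 minus B1 was fitted on all 8. The script was tested on simulated data. Named genes were Erf, Hras and Nras, the Y genes, Xist and the neighbours of Erf, the 10 largest increases and decreases among called genes with no overlap between pools, and up to 3 called members of each of 34 lists; other list members in the text were named after their values were seen. Some results are not reported here. The comparison, its members and the lists were chosen with earlier results of these data known. Some genes stand on several lists. Nothing in the labels says that the 4 cultures are repeats of each other, and p-values measure only the spread between these samples. Alternatives covered scaling, background, filter, mask, variance model, treatment term, arrays and probe. The files hold no mean signal column, so background correction by normexp used the deposited median intensity of spot and local background. Python 3.11.15, numpy 2.4.6, pandas 2.3.3 and matplotlib 3.10.9 made the tables and figures. The number of arrays limits the precision.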

Additional observations from a re-analysis of the deposited data

Results flagged for a closer look

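The pool difference was not the same in the A and the B pools. Over all 8 arrays, limma found 2539 genes for which A2 minus A1 differed from B2 minus B1 at an adjusted p below 0.05, and each gene's value here is that difference of differences on the log2 scale for a gene named above. For Erf the value was -1.66. A negative value means that A2 was lower against A1 than B2 against B1. Either pair can make up the value. A2 minus A1 and B2 minus B1 were 1.01 and -0.75 for Col3a1 and 0.85 and -0.70 for Twist2. For Acta1 they were 2.43 and -0.03. Slide and pool B1 cannot be told apart in this test. Of these genes, 52 were not well above background on either array of at least 1 pool, Eif2s3y and Fgf21 among them, and no size is given for such genes.

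Among the genes of the contractile list the values were 2.50 for Actc1, 2.47 for Acta1, 2.73 for Acta2, 2.32 for Cnn1, 2.26 for Tgfb1i1, 2.04 for Ccn1, 1.80 for Filip1l, 1.78 for Tagln, 1.23 for Myl9, 1.19 for Cnn2, 1.07 for Vcl and 0.44 for Myl6. Among the trophoblast, keratin and junction genes the values were 2.33 for Dsp, 2.25 for Hand1, 2.02 for Krt18, 2.02 for Krt7, 1.82 for Krt8, 1.60 for Krt19, 1.38 for Cdh2, 1.25 for Gcm1, 1.14 for Gata3, 0.93 for Cldn4 and -1.45 for Krt17. Among the targets of RAS and ERK the values were 1.88 for Fosl2, 1.85 for Ereg, 1.70 for Jun, 1.67 for Fosl1, 1.66 for Fos, 1.52 for Fosb, 0.85 for Hbegf, 0.84 for Dusp4 and -0.84 for Etv5. Among the matrix and fibroblast genes the values were 2.07 for Col4a1, 2.05 for Thbs1, 1.82 for Col4a2, 1.76 for Col3a1, 1.55 for Twist2, 1.50 for Col1a2 and 0.98 for Vim. Among the pluripotency and epiblast genes the values were -2.004 for Tcl1, -1.94 for Pou5f1, -1.94 for Prdm14, -1.83 for Nr0b1, -1.47 for Klf2, -1.21 for Nanog, -1.20 for Fgf4, -1.08 for Esrrb, -0.93 for Tcf15, -0.51 for Sox2 and 1.21 for Pou3f1. Among the amino acid response genes the values were -2.43 for Chac1, -2.07 for Gpt2, -1.79 for Trib3, -1.78 for Gdf15, -1.74 for Mthfd2, -1.25 for Psat1, -1.25 for Shmt2, -1.22 for Asns, -1.05 for Psph and 1.20 for Stbd1. Among the ETS and cascade genes the values were 2.42 for Ets1, 0.91 for Elf1, 0.70 for Nras, 0.68 for Araf, 0.61 for Rras2, -1.30 for Rps6ka2 and -1.44 for Mras. Among the growth factor pathway genes the values were 2.22 for Tgfb2, 2.09 for Bmp2, 2.09 for Wnt3, 1.63 for Wnt6, 1.49 for Tcf7l2 and 1.08 for Id2. Among the p53 targets the values were 1.68 for Pmaip1, 1.67 for Fas, 1.28 for Plk2, 0.98 for Cdkn1a and 0.85 for Mdm2. Among the imprinted genes the values were 1.70 for Peg3, 1.35 for Igf2, 0.87 for Mest, -1.39 for Cdkn1c, -1.39 for Slc22a18 and -1.49 for Phlda2. Among the glycolysis, hypoxia and ribosomal genes the values were -1.41 for Aldoc, -1.31 for Egln3, -0.73 for Tpi1, -0.67 for Ldha and -0.48 for Rpl28. Among the genes with the largest differences the values were 3.09 for Syt1, -2.52 for Hhip and -2.53 for Ceacam2.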

How the results depend on the processing

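The 2238 calls between A2 and A1 depended on the handling of dark areas and on the variance model. The count was 0 without the mask, 0 with local subtraction in its place, 0 with no trend in the variance and 1 with no treatment term. It was 938 without the mask but with a robust variance, an alternative chosen after seeing the data, 3604 under median scaling and 3752 in the fit of all 8 arrays. In the remaining alternatives that kept all 4 arrays it ran from 1788 under quantile normalization to 2960 with no filter on dim probes, and 1747 of the 1788 and 2227 of the 2960 were among the 2238. Leaving out an array in the 6-array fit gave 1349 to 2272.

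Of the genes named by the rule, 104 were called, and each kept its direction under every alternative that tested it. Alternatives that change only the variance model or the treatment term cannot change a direction. All 104 lost the call without the mask, with local subtraction or with no trend, and 103 with no treatment term. Over the 16 alternatives with calls beyond these, 18 to 22 contractile genes, 6 to 14 trophoblast genes, 8 to 23 RAS and ERK targets and 11 to 18 p53 targets were higher, and 12 to 17 naive pluripotency, 4 to 12 glycolysis and 13 to 23 amino acid response genes were lower.

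Calls between A2 and B2 ran from 3198 to 6487 with an array left out. For the contrast with the B pools the count was 1422 without the mask and ran from 579 to 2576 with an array left out. The median of chromosome 8 was -0.19 without the mask and -0.16 under quantile normalization. No paired analysis was possible because all 4 arrays compared carry replicate number 1; the reported fit pairs the arrays by treatment through its treatment term. Genes not well above background in a pool have only a bound, and masked genes no test.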
